A study of Drosophila melanogaster with 107 samples.

Results

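The comparison was of γ neurons that express EcR-DN, a dominant-negative form of the ecdysone receptor, with control γ neurons at 0 h after puparium formation, the start of metamorphosis. γ neurons are a class of Kenyon cells, the intrinsic neurons of the Drosophila mushroom body, a brain center of olfactory learning. The genes described were those with at least 10 normalized reads in 2 or more of the 6 libraries compared, 3 EcR-DN and 3 control. This rule took 7035 of the 17050 genes in the table, and it makes no use of the difference between the groups.

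The series holds 107 libraries of sorted brain cells, 64 that follow development and 43 of a perturbation experiment, to which these 6 belong. Each of the 6 came from 1000 brain cells sorted for the red fluorescent marker DsRed, and was made by MARS-seq, a protocol that barcodes each sample and reads the 3' ends of its transcripts. Flies were reared at 25 °C, and the sexes were taken at random. The control genotype was labelled y,w/+; UAS-RedStinger/+;71G10/+, that is, 1 copy each of a nuclear red fluorescent reporter and of the 71G10 element. The EcR-DN group carries the label EcR-DN alone, so the driver, the reporter copy and the genetic background of these animals, and whether the expression began before 0 h, are not stated. Both groups were brain cells of pupae at 0 h, and the RNAi groups used below bear the labels Sox14 RNAi and E75 RNAi, with no more of their genotype given. Replicates are lettered A, B and C, and they are not stated to come from separate animals or sorts, so the p-values measure the spread between libraries only.

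Ecdysone is the steroid hormone that times the molts and metamorphosis of insects. It binds a heterodimer of the nuclear receptors EcR and Usp, which switches on a small set of transcription factor genes, and these in turn act on many further genes. In γ neurons the receptor is known to be required for pruning, in which the larval axon branches and dendrites are removed in the early pupa before adult branches grow, and a dominant-negative receptor is a standard way to block the hormone's action within a cell.

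Totals were alike, at 2234865 to 2474368 normalized reads per library, since the authors had scaled the libraries. The depth before scaling was estimated from the step between neighbouring low values, and it moved with the groups, at 1.31 to 2.13 megareads in the control and 2.97 to 3.70 megareads in the EcR-DN libraries. Genes above 0 numbered 7100 to 7686 in the control and 8012 to 8542 in the EcR-DN libraries. After each library had been thinned at random to the depth of the shallowest, the ranges still did not overlap, at 7100 to 7436 and 7592 to 8181. Over the 7035 genes, libraries correlated at 0.824 to 0.844 among controls and 0.880 to 0.890 among EcR-DN (Pearson's r of log2 values across genes), and at 0.746 to 0.794 between the groups. Whether the values count reads or molecules is not stated, and a depth bounds counting error only.

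EcR-DN neurons differed from control neurons in 1434 of the 7035 genes, 20.4% of them. Of these, 880 were higher (12.5%) and 554 lower (7.87%) at a Benjamini-Hochberg adjusted p under 0.05 in limma, a linear model with variances moderated across genes, fitted to log2(value + 1) of all libraries of the table. Fold changes below are on that scale, which understates the changes of weakly expressed genes. They stand with a standard error for 3 libraries per group, with the variance pooled over all groups of the table and moderated. The difference was 4-fold or more for 495 of the higher and 145 of the lower genes. Higher genes were mostly expressed at low levels in control neurons, with a median of 64.3 normalized reads against 282.0 in EcR-DN, and the lower genes had medians of 570.1 and 201.3. The groups did not overlap in 1377 of the 1434 called genes (96.0%), against 2461 of all 7035 (35.0%).

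Fitted to the 6 libraries alone, over the same 8656 genes of the table, limma called 920 genes, 541 higher and 379 lower. Fitted alone to the 7035 genes that met the rule, the 6 libraries gave 1306 calls, 774 higher and 532 lower. After thinning to one depth, that fit gave 1260 calls, 780 higher and 480 lower, over the 7047 genes that then met the rule. The median difference over the 7035 genes was 0.17, and quantile normalization moved it to -0.04, with 711 genes higher and 622 lower. At the edge of the rule, 478 genes reached 10 reads in exactly 2 libraries and 873 genes, left out, in exactly 1. No control library reached 10 reads for 331 of the 7035 genes, of which 162 were called higher, and no EcR-DN library did for 92, of which 27 were called lower. Such genes entered through the group in which they are high, and 54 called genes were listed at 0 in every control library and 5 in every EcR-DN library.

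**Figure D1:**
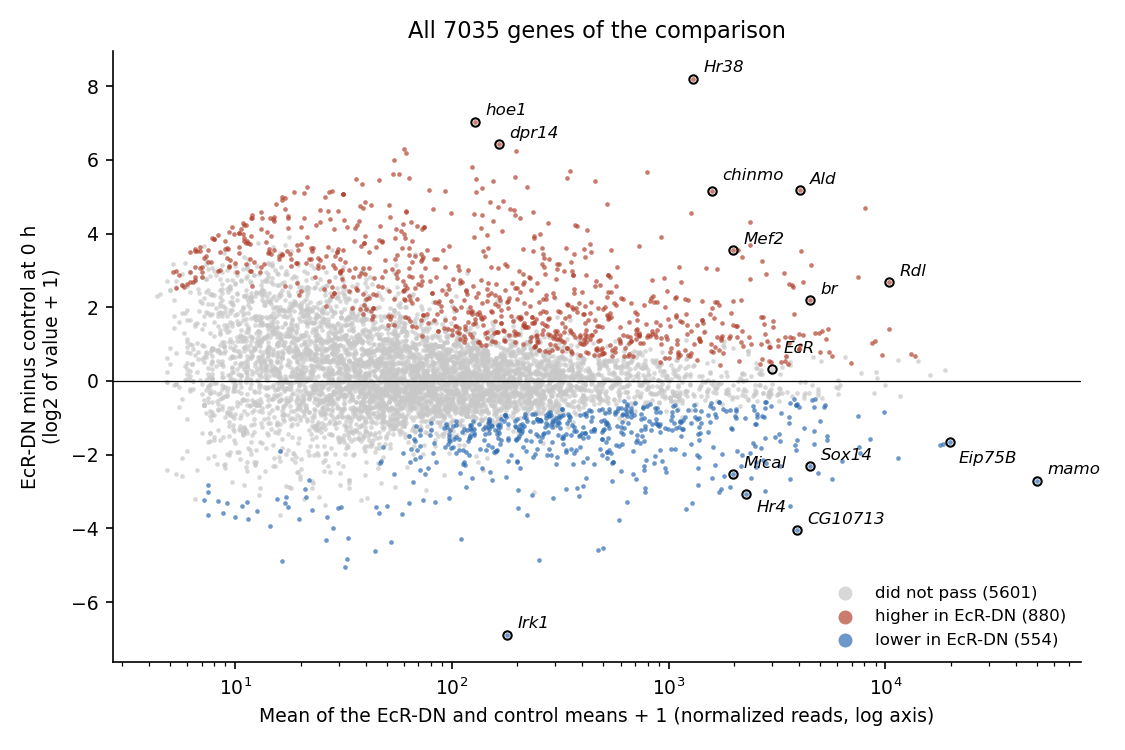
Difference between EcR-DN and control at 0 h (log2 of value + 1, y axis) against the mean level (normalized reads + 1, log x axis) for each of the 7035 genes, one point a gene. Red points are the 880 genes called higher, blue points the 554 called lower and grey points the 5601 that did not pass; the higher genes reach larger differences, up to Hr38 at 8.21, and Irk1 is the lowest at -6.88.

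The receptor genes themselves did not pass the test. EcR was at 2182, 2384 and 3497 normalized reads in control libraries A, B and C and at 3259, 3102 and 3455 in the EcR-DN libraries, and the groups overlapped (0.31 ± 0.19, adjusted p = 0.293). Whether transcripts of the transgene add to these reads is not stated, so the values do not show the level of the native gene. Its partner usp had 411, 499 and 431 reads against 235, 342 and 428, also with overlap (-0.45 ± 0.26, adjusted p = 0.256). Of the 11 receptor and cofactor genes measured, 2 were higher and 0 lower, against 12.5% and 7.87% of all genes. These were mor, a subunit of the Brahma chromatin remodeling complex (1.05 ± 0.32, adjusted p = 0.0184), and trr, a histone methyltransferase that acts with EcR (2.06 ± 0.69, adjusted p = 0.0311). Both calls were lost with the 6 libraries fitted alone and with some single libraries left out (control A or B or EcR-DN B for mor, control A or any EcR-DN library for trr). The largest adjusted p over the alternatives was 0.166 for mor and 0.401 for trr.

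The early ecdysone response held genes that were lower and a pair that was higher in EcR-DN neurons. Of 14 such genes, 7 fell, 2 rose and 5 did not pass, against 7.87% of all genes that fell, and their median difference was -1.25 against 0.17 over all genes. Sox14, a transcription factor gene that is induced by the receptor in these neurons and is required for pruning, had 7347, 7888 and 7100 reads in the control libraries and 1186, 2015 and 1432 in the EcR-DN libraries. Every EcR-DN value lay below every control value, and the difference was large (-2.30 ± 0.23, 4.93-fold, adjusted p = 6.05e-10). Eip75B, which encodes the nuclear receptor E75, had 28816, 25661 and 36319 reads against 8777, 9812 and 9897 (-1.66 ± 0.22, adjusted p = 2.53e-07). Both genes thus remained expressed in every EcR-DN library, at levels that did not overlap those of the controls.

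Among the other nuclear receptor genes, Hr4 fell the most of the 14, from 3412, 3232 and 5560 to 479, 427 and 516 reads (-3.06 ± 0.43, adjusted p = 8.8e-07). Hr39 went from 1355, 1013 and 1465 to 295, 230 and 342 reads (-2.14 ± 0.31, adjusted p = 1.31e-06). In both, the lowest control value was more than double the highest EcR-DN value. The transcription factor genes Blimp-1, a repressor (-2.02 ± 0.35, adjusted p = 3.07e-05), vri, known from the circadian clock (-1.73 ± 0.22, adjusted p = 1.55e-07), and Eip74EF, of the ETS family (-1.51 ± 0.28, adjusted p = 6.68e-05), fell too, without overlap. For Kr-h1, Eip78C, Hr46, crol and Eip93F the test was not passed, with differences from -0.99 (Kr-h1) to 0.96 (Eip93F) and adjusted p from 0.0726 (Eip93F) to 0.562 (Eip78C).

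Both genes that rose are also classic ecdysone genes. The zinc-finger gene br (broad), which marks the pupal program in epidermis, was at 1516, 1872 and 1451 reads in the control and at 6320, 8120 and 7710 in the EcR-DN libraries (2.19 ± 0.28, 4.58-fold, adjusted p = 1.2e-07). The nuclear receptor gene ftz-f1, known as a mid-prepupal gene that is expressed when the hormone level drops, was at 16, 9 and 58 against 253, 288 and 252 reads (3.62 ± 0.53, adjusted p = 1.54e-06). In neither gene did the groups overlap. Of 12 other ecdysone-induced genes, first found in imaginal discs, salivary glands and cell lines, 1 rose and 0 fell, against 12.5% and 7.87% of all genes. The 1 that rose was ImpL3, the lactate dehydrogenase gene (3.61 ± 0.77, adjusted p = 0.000579).

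**Figure D2:**
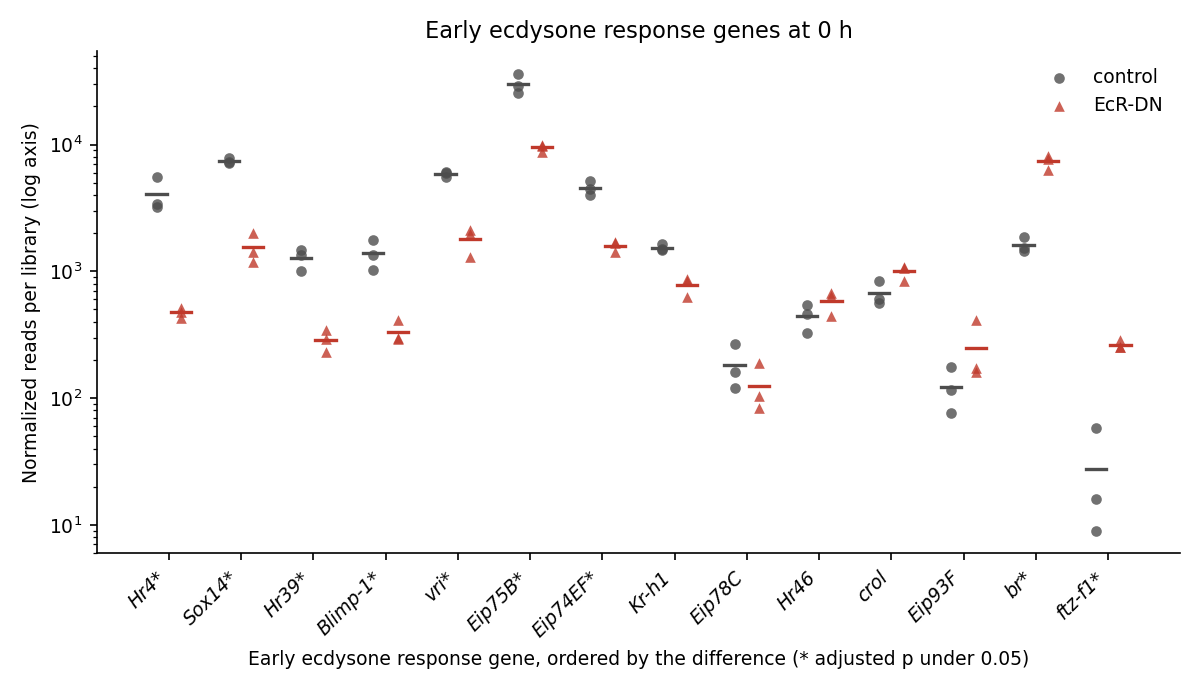
Normalized reads (log y axis) of the 14 early ecdysone response genes in each of the 3 control (grey circles) and 3 EcR-DN libraries (red triangles) at 0 h, with group means as bars, ordered by the difference. The 7 genes from Hr4 to Eip74EF, with Sox14 at 1186 to 2015 reads against 7100 to 7888, lie lower in EcR-DN without overlap, and br and ftz-f1 lie higher.

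Regulators of pruning and remodeling split in the same way between a few large falls and many genes that did not pass. Of 36 genes with a known part in pruning of γ or sensory neurons, 8 fell, 2 rose and 26 did not pass (median difference -0.36). Over all genes, 7.87% fell and 12.5% rose. Mical, an enzyme that oxidizes and disassembles actin filaments and lies downstream of Sox14 in dendrite pruning, had 3478, 3144 and 3518 reads in the control libraries and 557, 482 and 741 in the EcR-DN libraries. That fall was the largest of the list and without overlap (-2.53 ± 0.25, 5.77-fold, adjusted p = 4.58e-10). The ESCRT-III gene shrb, of the machinery that sorts membrane proteins for breakdown, had 1355, 1283 and 848 against 442, 393 and 279 reads (-1.64 ± 0.26, adjusted p = 7.86e-06).

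The SCF ubiquitin ligase, needed for axon pruning, was represented by its F-box gene slmb (-1.50 ± 0.36, adjusted p = 0.00188) and its scaffold gene Cul1 (-0.98 ± 0.20, adjusted p = 0.00041), which fell together with Uba1, the ubiquitin-activating enzyme (-0.83 ± 0.23, adjusted p = 0.00871). Further falls were those of wit, a type II receptor of BMP signaling (-1.44 ± 0.35, adjusted p = 0.0023), of the initiator caspase gene Dronc (-1.82 ± 0.48, adjusted p = 0.00542) and of Diap1, which encodes a caspase inhibitor (-1.26 ± 0.19, adjusted p = 2.82e-06). The genes higher in EcR-DN were stan, the atypical cadherin Flamingo, at 0, 38 and 5 against 88, 117 and 72 reads (3.89 ± 0.75, adjusted p = 0.000154), and hep, a kinase of the JNK pathway (0.90 ± 0.29, adjusted p = 0.0269). Without 1 library the calls of hep (EcR-DN B or C, control A or B), Uba1 (EcR-DN A or B) and Dronc (EcR-DN C) were lost. The 26 genes that did not pass had differences from -1.18 (bys, a ribosome assembly factor) to 1.57 (myo, a TGF-β ligand), among them the adhesion gene Fas2 (-0.46 ± 0.22, adjusted p = 0.155), the nuclear receptor gene Hr51 (-0.09 ± 0.21, adjusted p = 0.855) and Smox, a Smad transcription factor (0.34 ± 0.19, adjusted p = 0.245). The TGF-β receptor gene babo, required for EcR expression in these neurons, had 365, 246 and 412 against 402, 584 and 354 reads, with overlap (0.39 ± 0.34, adjusted p = 0.512).

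Proteasome genes were lower as a whole complex. Of the 33 subunit genes, 31 fell, 0 rose and 2 (Prosbeta4 and Prosalpha1) did not pass, against 7.87% of all genes that fell. The median difference was -1.08 against 0.17 over all genes. The base gene Rpt4 had 676, 1387 and 892 against 398, 377 and 303 reads (-1.40 ± 0.24, adjusted p = 3.12e-05), and the core gene Prosalpha5 had 1521, 1418 and 1014 against 450, 480 and 574 (-1.38 ± 0.24, adjusted p = 3.43e-05). The lid gene Rpn3, at 1140, 1292 and 1108 against 434, 480 and 498 reads (-1.32 ± 0.23, adjusted p = 3.07e-05), and the core gene Prosalpha3 (-1.25 ± 0.20, adjusted p = 5.54e-06) were alike in size. In each of these 4 the groups did not overlap. They were named for their small p, and other called subunits had smaller differences, such as Prosbeta1 (-0.87) of the core, Rpn13 (-0.87) and Rpn6 (-0.73).

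Genes that tag and extract proteins for the proteasome fell with it. Of 31 ubiquitin conjugation and cullin ligase genes, 15 fell and 0 rose (median -0.83), against 7.87% of all genes that fell. The polyubiquitin gene Ubi-p5E had 5789, 5913 and 5802 against 2210, 1970 and 1661 reads (-1.59 ± 0.19, adjusted p = 3.09e-08), and TER94, the segregase VCP of other species, had 2164, 2402 and 1660 against 637, 679 and 730 (-1.59 ± 0.21, adjusted p = 2.36e-07). Ubi-p63E, another polyubiquitin gene, fell as well (-1.02 ± 0.18, adjusted p = 6.07e-05). Several of the 15 are also in the list of pruning regulators (Uba1, Cul1 and slmb), so both counts share them.

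Membrane and organelle turnover genes were lower too, less uniformly, against 7.87% of all genes that fell and 12.5% that rose. Of 40 endosomal sorting and Rab GTPase genes, 13 fell and 2 rose (median -0.70). Stam, of the ESCRT-0 complex, had 3078, 2485 and 2612 against 380, 517 and 416 reads, the largest fall among them and without overlap (-2.64 ± 0.24, adjusted p = 1.46e-10). The genes that rose were Rab26 (2.28 ± 0.34, adjusted p = 2.01e-06) and Rab27 (3.65 ± 0.49, adjusted p = 3.72e-07), Rab proteins known from secretory and synaptic vesicles. Of 24 autophagy genes, 7 fell and 0 rose (median -0.70), led by the E1-like enzyme gene Atg7 with 522, 589 and 666 against 92, 46 and 104 reads (-2.94 ± 0.45, adjusted p = 3.09e-06). Of 11 cell death genes, 4 fell and 0 rose: Dronc, Diap1 and the effector caspase genes Dcp-1 (-1.64 ± 0.28, adjusted p = 1.93e-05) and Drice (-1.60 ± 0.47, adjusted p = 0.0124), whose call was lost without EcR-DN library A or C or control library A.

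Genes of temporal identity, which change as mushroom body neurons are born and mature, moved in both directions. The zinc-finger gene mamo, known to maintain γ identity, was at 76432, 65477 and 119553 reads in control and 14645, 13155 and 11182 in EcR-DN libraries (-2.71 ± 0.43, adjusted p = 7.02e-06). The BTB zinc-finger gene chinmo, which specifies early-born fates, was at 173, 14 and 224 against 2761, 3588 and 2699 reads (5.16 ± 0.61, adjusted p = 2.78e-08). For chinmo, control library B was far below the others, and the groups of both genes did not overlap. The translational repressor gene brat fell (-2.08 ± 0.33, adjusted p = 6.87e-06), and Syp, Imp and let-7-C of the 6 genes measured did not pass.

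Genes of neuronal signaling were mostly higher in EcR-DN neurons. Of 36 synaptic vesicle and release genes, 23 rose and 0 fell (median 1.24), of 28 ion channel genes 18 rose and 1 fell (median 1.19), and of 38 neurotransmitter receptor genes 19 rose and 4 fell (median 1.14), against 12.5% of all genes that rose. The complexin gene cpx, which clamps and promotes vesicle fusion, had 892, 654 and 1261 reads in the control and 6953, 10205 and 7156 in the EcR-DN libraries (3.14 ± 0.32, 8.83-fold, adjusted p = 1.26e-09). The calcium sensor gene Syt1 had 736, 566 and 859 against 2876, 3773 and 3026 (2.17 ± 0.24, adjusted p = 4.64e-09), and the active zone gene brp had 1423, 1366 and 1356 against 3109, 5164 and 4144 (1.55 ± 0.17, adjusted p = 5.71e-09). No EcR-DN library of these genes fell within the control range. Syn, of the vesicle-bound synapsin, also rose (1.82 ± 0.24, adjusted p = 2.79e-07).

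Channel genes included the largest fall of all. The inward rectifier potassium channel gene Irk1 had 422, 351 and 287 reads in the control and 12, 0 and 1 in the EcR-DN libraries (-6.88 ± 1.07, adjusted p = 4.71e-06). In the other direction, Hk, the β subunit of the Shaker potassium channel, had 2, 29 and 23 against 567, 873 and 604 reads (5.70 ± 0.64, adjusted p = 7.37e-09), and the sodium channel family gene NaCP60E had 4, 1 and 31 against 235, 322 and 331 (5.42 ± 0.66, adjusted p = 4.1e-08). Hk and NaCP60E were near 0 in at least 1 control library each and over 200 in every EcR-DN library. Rgk1, a small GTPase related to regulators of calcium channels (2.16 ± 0.23, adjusted p = 3.07e-09), and unc79, of the NALCN channel complex (2.57 ± 0.31, adjusted p = 2.88e-08), rose as well.

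Among receptor genes, the GABA-A receptor gene Rdl had 2146, 2563 and 3834 against 17183, 20518 and 16160 reads (2.69 ± 0.36, 6.46-fold, adjusted p = 2.55e-07). The nicotinic acetylcholine receptor gene nAChRalpha5 had 475, 259 and 450 against 3248, 4761 and 3919 (3.36 ± 0.34, adjusted p = 6.05e-10), and nAChRbeta1 had 256, 279 and 430 against 2596, 2742 and 2606 (3.08 ± 0.38, adjusted p = 7.39e-08). These are receptors for the inhibitory and the main excitatory input of Kenyon cells, and in each the groups were well apart. The glutamate receptor gene GluRIA was at 29, 13 and 19 against 91 to 160 reads (2.70 ± 0.36, adjusted p = 3.12e-07). Of 16 neuropeptide and peptide receptor genes, 3 rose and 1 fell (median -0.25), beside 12.5% and 7.87% of all genes. Among them were sNPF, a peptide that Kenyon cells make (1.50 ± 0.28, adjusted p = 8.78e-05), and the receptor gene PK2-R1, at 86, 86 and 70 against 17, 1 and 0 reads (-4.62 ± 1.04, adjusted p = 0.000998).

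Of 31 genes of Kenyon cell identity and learning, 17 rose and 3 fell (median 0.79), against 12.5% and 7.87% of all genes. Mef2, a transcription factor of mature Kenyon cells, had 374, 228 and 344 against 3692, 3497 and 3752 reads (3.56 ± 0.37, adjusted p = 1.31e-09). Pka-R1, the regulatory subunit of the cAMP-dependent kinase, had 790, 503 and 553 against 2120, 3249 and 2833 (2.16 ± 0.23, adjusted p = 3.92e-09), and the transcription factor gene ab had 48, 20 and 48 against 612, 751 and 726 (4.23 ± 0.62, adjusted p = 1.45e-06). The Pax6 gene ey, a marker of Kenyon cells, was at 1001, 970 and 1181 reads in the control and at 1328, 1487 and 1372 in the EcR-DN libraries, and the pan-neuronal gene elav was at 2595, 2018 and 2673 against 3292, 3531 and 3589. The genes that fell were mamo, the dopamine receptor gene Dop1R2 (-0.95 ± 0.22, adjusted p = 0.00134) and dac, a further Kenyon cell marker, at 6259, 5786 and 5637 against 2029, 2408 and 3001 reads (-1.27 ± 0.19, adjusted p = 3.05e-06). The markers ey, dac, Mef2 and elav were above 0 in all 6 libraries, with Mef2 and elav higher and dac lower in EcR-DN, and ey did not pass the test (0.41 ± 0.18, adjusted p = 0.128).

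Glycolysis genes rose almost throughout, against 12.5% of all genes that rose. Of 15 genes, 12 rose, 0 fell and 3 did not pass (Treh, Pfrx and Gpdh), with the largest median difference of the lists with over 10 genes, 2.19. The aldolase gene Ald had 211, 175 and 266 reads in the control and 6341, 8480 and 8671 in the EcR-DN libraries (5.17 ± 0.61, 36.0-fold, adjusted p = 2.04e-08). Pglym78, the phosphoglycerate mutase, had 218, 224 and 250 against 1627, 2252 and 2118 (3.10 ± 0.39, adjusted p = 8.65e-08), and Gapdh2 had 892, 758 and 668 against 2881, 3822 and 3900 (2.19 ± 0.23, adjusted p = 1.18e-09). Enzymes at successive steps of the pathway thus differed in one direction, by unequal amounts.

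Cytoskeleton and surface protein lists held genes called in each direction, several of them at shares near those of all genes, 12.5% higher and 7.87% lower. Of 21 tubulin and microtubule-binding genes, 5 rose and 2 fell. The MAP1B homolog futsch had 575, 631 and 776 against 4176, 5930 and 4726 reads (2.90 ± 0.33, adjusted p = 9.09e-09), and the microtubule-severing gene spas had 1557, 1651 and 1729 against 301, 228 and 376 (-2.47 ± 0.27, adjusted p = 3.94e-09). Neither gene's groups overlapped. Of 41 actin regulator genes 5 rose, led by the Rac exchange factor sif (3.56 ± 0.42, adjusted p = 2.31e-08), and 8 fell, led by Mical and the myosin light chain gene sqh (-1.50 ± 0.21, adjusted p = 8.16e-07).

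Of 59 axon guidance and adhesion genes, 10 rose and 10 fell. Dscam2, an immunoglobulin receptor of neurite tiling, had 182, 120 and 193 against 706, 949 and 979 reads (2.42 ± 0.23, adjusted p = 2.26e-10), and its relative Dscam4 had 54, 63 and 86 against 601, 605 and 710 (3.24 ± 0.32, adjusted p = 4.58e-10). The secreted fibrinogen-like gene sca (-2.73 ± 0.37, adjusted p = 3.91e-07) and the leucine-rich repeat gene 2mit (-2.14 ± 0.29, adjusted p = 3.56e-07) fell. Of 26 dpr and DIP genes, interacting families of immunoglobulin proteins at synapses, 9 rose and 3 fell. The largest rise was in dpr14, at 0, 1 and 24 against 274, 396 and 289 reads (6.42 ± 0.71, adjusted p = 6.13e-09), and the largest fall in DIP-beta, at 300, 171 and 136 against 31, 14 and 1 (-4.28 ± 1.24, adjusted p = 0.0115), a call lost without EcR-DN library C or control library A.

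Signaling lists held called genes in each direction, beside the 20.4% called over all genes. In the TGF-β and BMP list of 18 genes, 4 fell, led by the protease gene tok (-3.18 ± 0.54, adjusted p = 2.44e-05), and 1 rose, the pathway inhibitor Dad, at 4, 0 and 2 against 53, 46 and 53 reads (4.39 ± 1.07, adjusted p = 0.00252). In the insulin and TOR list of 20 genes, the kinase gene Pdk1 (-1.82 ± 0.24, adjusted p = 2.8e-07) and S6k (-0.64 ± 0.18, adjusted p = 0.00743) fell and REPTOR, a transcription factor restrained by TOR, rose (2.48 ± 0.38, adjusted p = 3.13e-06). In the Notch and EGFR list of 30 genes, 5 rose and 3 fell. The Notch ligand gene Dl was listed at 0 in all control libraries and at 24, 46 and 36 in the EcR-DN libraries (adjusted p = 0.000339), and sty, the inhibitor sprouty of EGFR signaling, had 71, 49 and 101 against 589, 949 and 696 reads (3.35 ± 0.74, adjusted p = 0.000784).

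Genes of stress, activity and translation were examined beside these, with 12.5% of all genes higher and 7.87% lower. Of 22 heat shock and stress genes 6 fell and 3 rose. The small heat shock gene Hsp67Bc had 4223, 3939 and 4130 against 732, 834 and 470 reads (-2.63 ± 0.32, adjusted p = 2.88e-08), and Hsp22 and Hsp67Bb had the same values as each other in every library (-2.21 ± 0.56, adjusted p = 0.00353), so that their reads cannot be told apart. Of 8 activity-induced genes 3 rose, CG14186 among them (1.63 ± 0.40, adjusted p = 0.00237). The nuclear receptor gene Hr38 had 7, 4 and 13 against 1531, 2725 and 3462 reads, the largest rise of all (8.21 ± 0.88, adjusted p = 3.02e-09), and the Egr homolog sr had 11, 6 and 5 against 279, 530 and 331 (5.53 ± 1.02, adjusted p = 7.42e-05). Of 83 cytoplasmic ribosomal protein genes 10 fell and 0 rose (median -0.31), by 0.71 at most (RpL36, -0.71 ± 0.18, adjusted p = 0.00334), and of 68 mitochondrial ribosomal protein genes 0 fell and 1 rose.

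**Figure D3:**
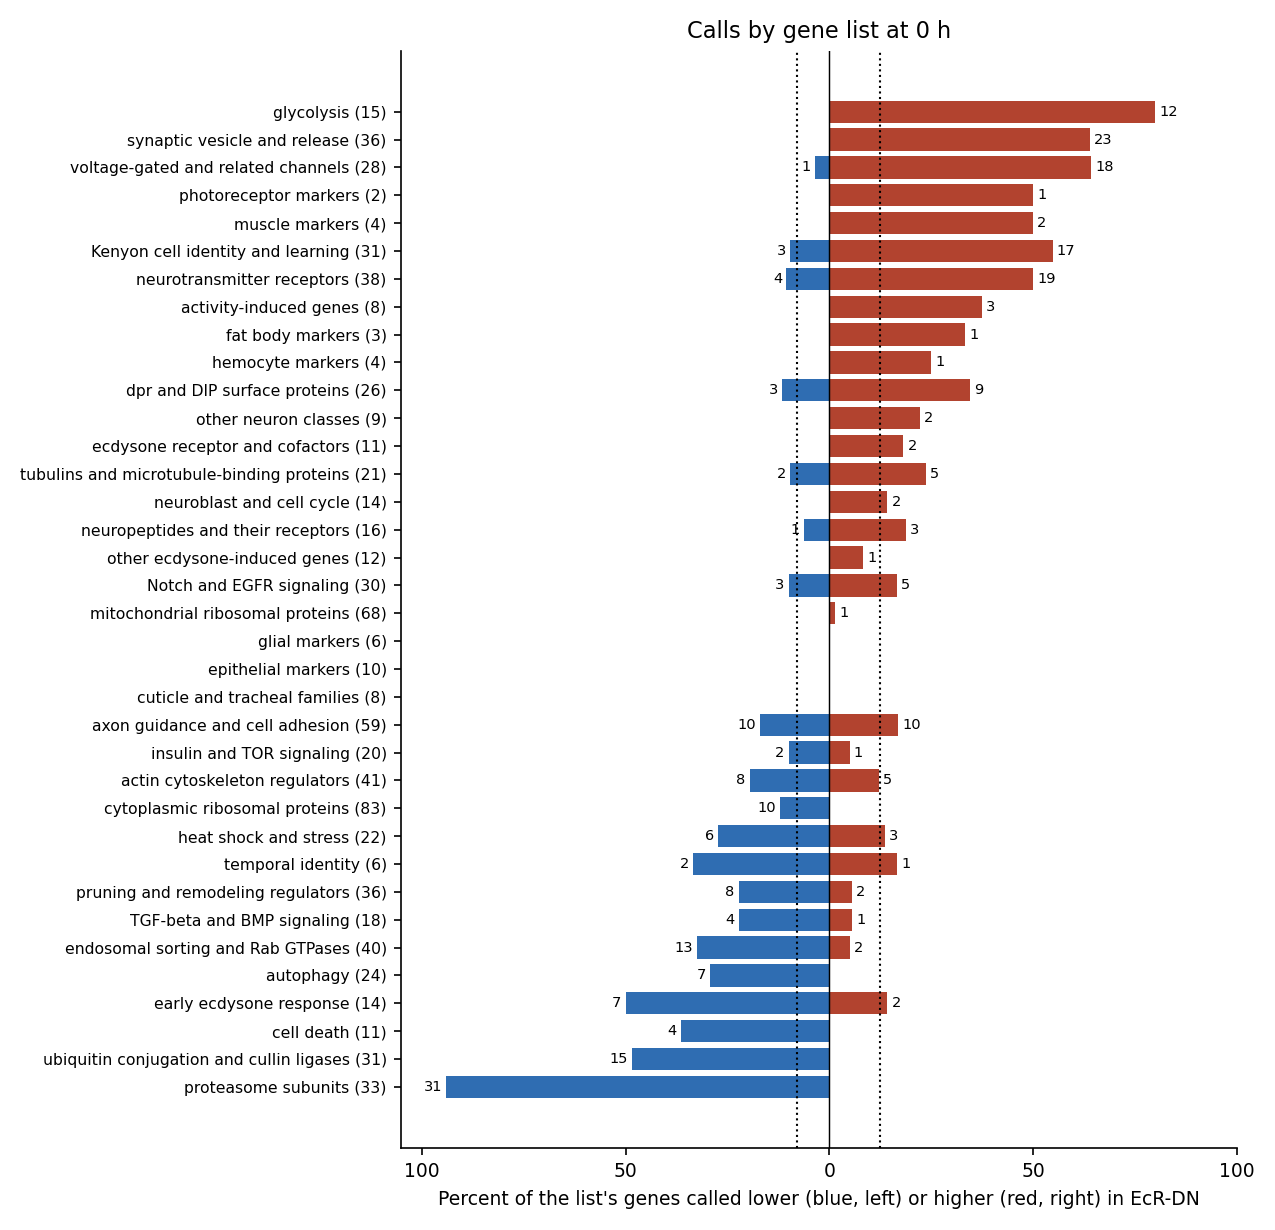
Percent of each gene list called lower (blue, to the left) or higher (red, to the right) in EcR-DN at 0 h, with the number called beside each bar and the genes measured in brackets. Dotted lines mark the share among all 7035 genes, 7.87% lower and 12.5% higher; proteasome subunits (31 of 33 lower) and glycolysis (12 of 15 higher) lie at the ends.

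Many of the largest changes lay outside these lists. The 15 largest falls among called genes with a mean of at least 50 reads in the higher group and no overlap were Irk1, CG30460, CG6231, CanA1, PK2-R1, CG7860, CG11880, CG43800, DIP-beta, CG31036, CG10713, Drep3, CG12880, beat-IIIc and CG33275, from -6.88 (Irk1) to -3.62 (CG33275, whose call was lost without EcR-DN library C or control library B or C). CG10713 had the highest control level among them, at 7346, 8356 and 6351 against 474, 631 and 281 reads (-4.06 ± 0.51, adjusted p = 1.04e-07). CG11880, at 1164, 852 and 843 against 42, 58 and 26 reads, had the smallest p (-4.53 ± 0.36, adjusted p = 1.59e-11). CanA1 encodes a catalytic subunit of the phosphatase calcineurin, and its 107, 40 and 41 control reads stood against 1 in each EcR-DN library (-4.83 ± 1.14, adjusted p = 0.00172).

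The 15 largest rises under the same rule were Hr38, hoe1, dpr14, CG43778, CG43066, CG8398, CG4678, CG13594, Hk, bol, CG8177, CG12290, sr, Tsp66E and CG34357, from 8.21 (Hr38) to 5.51 (CG34357). The gene hoe1, of a family of putative membrane transporters, had 0, 0 and 5 against 144, 290 and 320 reads (7.04 ± 0.92, adjusted p = 1.97e-07). The gene bol, an RNA-binding protein known for its role in male meiosis, had 45, 6 and 84 against 1468, 1851 and 1296 (5.66 ± 0.84, adjusted p = 1.9e-06). All 15 had under 100 reads in each control library, and the falls listed above began from control levels of 39 to 8356 reads. The rule itself asked for a control mean of at least 50 reads in a fall but not in a rise. The control levels of rises and falls thus cannot be compared. Several rises, such as hoe1 and CG4678 (0, 1 and 1 control reads), met the limit of 10 reads through the EcR-DN libraries alone.

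The difference at 0 h was then set beside the change that unperturbed γ neurons undergo from the third instar to 0 h, taken from the developmental table, which shares no library with the perturbation table. Of the 7035 genes, 6948 were tested there, with 3 libraries of the third instar and 4 of 0 h, and 686 passed (9.87%), of which 251 rose (3.61%) and 435 fell (6.26%). Of the 251 that normally rise, 174 were lower in EcR-DN (69.3%) and 2 higher. Of the 435 that normally fall, 327 were higher in EcR-DN (75.2%) and 0 lower. Among the 6262 genes that did not pass in development, 376 were lower (6.0%) and 532 higher (8.5%). The median EcR-DN difference was -1.44, 1.96 and 0.14 in these classes. With the 6 libraries thinned to one depth, the counts were 167 lower and 1 higher of 248, and 325 higher and 0 lower of 435.

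Of the genes called in both, a pair had the same direction, CG32676 and CG9062, which rose in development and were higher in EcR-DN. Mef2 went from a mean of 2122.0 to one of 150.8 reads in the developmental table, where it fell by 3.80 ± 0.21 on the log2 scale (adjusted p = 3.49e-21), and it was higher in EcR-DN by 3.56 ± 0.37. CG10713 had means of 335.7 and 3886.2 reads and rose by 3.56 ± 0.56 (adjusted p = 3.66e-06), and in EcR-DN its difference was -4.06 ± 0.51. By list, 19 of 36 synaptic and 10 of 15 glycolysis genes fell in development and 0 rose, while 2 of 33 proteasome genes rose (median 0.62) and 31 were lower in EcR-DN. Several ecdysone genes that were lower in EcR-DN did not pass in development, among them Sox14 (0.75 ± 0.57, adjusted p = 0.539), vri (0.04 ± 0.58, adjusted p = 1.0) and Blimp-1 (0.13 ± 0.25, adjusted p = 0.877).

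**Figure D4:**
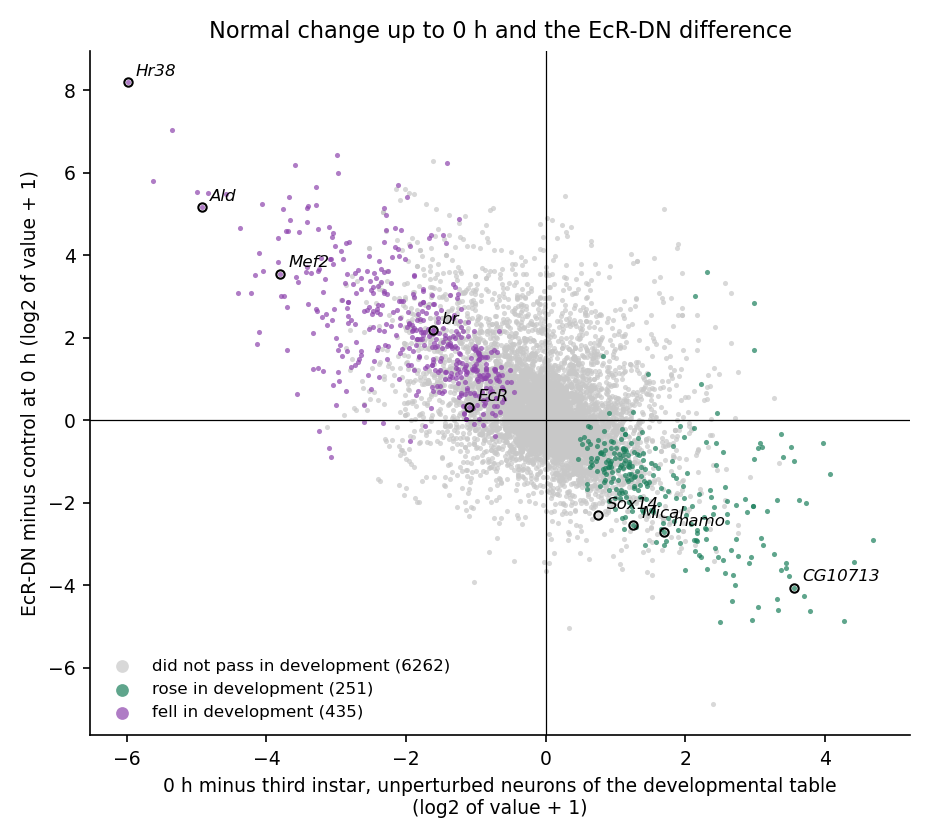
EcR-DN minus control at 0 h (y axis) against the change from the third instar to 0 h in unperturbed γ neurons of the developmental table (x axis), both as log2 of value + 1, for the 6948 genes tested in both. The 251 genes that rose in development (green) lie mostly below 0 and the 435 that fell (purple) mostly above 0; no library is shared between the axes.

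EcR-DN neurons were also compared with their own controls at the third instar (3 and 2 libraries), 6 h (3 and 2) and 12 h (2 and 3), and the groups share no library with the comparison at 0 h, although all libraries of the table enter the estimate of the spread. At the third instar 671 of the 7035 genes were called (9.54%) and at 6 h 547 (7.78%). By direction, 4.29% were higher and 5.25% lower at the third instar, and 5.94% higher and 1.83% lower at 6 h. Of the 880 genes higher at 0 h, 231 were higher and 2 lower at the third instar, and 240 were higher and 10 lower at 6 h. Of the 554 genes lower at 0 h, 266 were lower and 0 higher at the third instar, and 63 were lower and 22 higher at 6 h. The lower genes thus had a median difference of -1.12 at the third instar and -0.40 at 6 h, and the higher genes 1.0 and 0.80. At 12 h, 184 of the 880 were higher and 9 lower (median 0.66), and 22 of the 554 were lower and 19 higher (median -0.16). Of the 5601 genes not called at 0 h, 134 were higher and 36 lower at 12 h. Proteasome subunits were lower in 25 of 33 at the third instar, with 0 lower and 1 higher at 6 h, and synaptic genes were higher in 8 of 36 and in 15 of 36.

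The difference of the effect between 0 h and the third instar, tested itself, passed for 34 of the 7035 genes (0.483%), 32 with a more positive effect at 0 h. EcR led it: its control values at the third instar were 4007 and 5478 reads and the EcR-DN values 1249, 1186 and 1208, so that the effect moved from -1.95 at the third instar to 0.31 at 0 h (difference 2.26 ± 0.28, adjusted p = 6.92e-06). The effects on vri (difference 1.77 ± 0.34, adjusted p = 0.00376) and Eip74EF (1.92 ± 0.41, adjusted p = 0.0149) were also smaller falls at 0 h than before. In EcR-DN neurons Eip74EF had 424, 449 and 376 reads at the earlier stage and 1697, 1411 and 1674 at 0 h, and its control values were 4123 and 4911 and then 4027, 4497 and 5174. Leaving out 1 library moved the count of 34 to 65 (control C at 0 h), 22 (control B at 0 h), 15 (control A at 0 h), 20 (EcR-DN B at 0 h), 21 (EcR-DN A at the third instar), 16 (control B at the third instar) or 11 (control C at the third instar). The 34 include genes with identical results, sky with CG43739 and CG44001 with CG33995 and CG44000, so they are not all separate signals.

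Between 0 h and 6 h, a comparison chosen after the data had been seen, the effect differed for 398 genes (5.66%), among them 10 of the 14 early response genes, 8 with a more negative effect at 0 h. Sox14 fell in the controls from 7100 to 7888 reads at 0 h to 471 and 503 at 6 h, and was at 1722, 1488 and 1512 in EcR-DN neurons at 6 h, above the controls (difference of effects -3.99 ± 0.34, adjusted p = 8.97e-11). Eip74EF did likewise, with 289 and 243 control reads against 1424, 1053 and 944 at 6 h (-3.59 ± 0.41, adjusted p = 5.04e-08). EcR had 308 and 347 control reads against 2610, 2674 and 2148 (-2.60 ± 0.28, adjusted p = 1.38e-08), with the limit on transgene reads given above. Eip93F, an ecdysone-induced gene of late stages, and crol differed the other way (3.54 ± 0.56, adjusted p = 2.4e-05, and 1.29 ± 0.37, adjusted p = 0.0295).

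**Figure D5:**
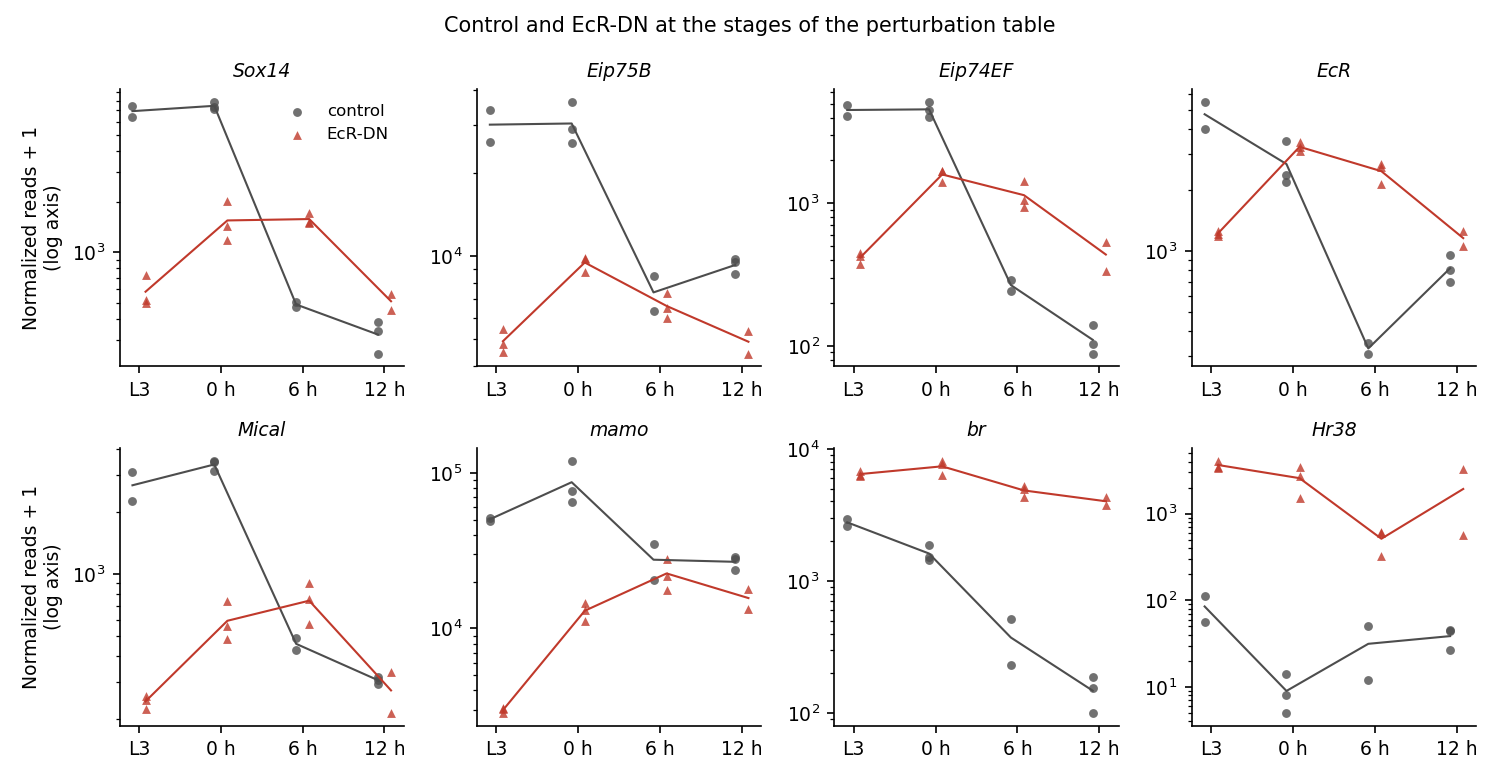
Normalized reads + 1 (log y axis) of 8 genes in control (grey circles) and EcR-DN libraries (red triangles) at the third instar (L3) and at 0, 6 and 12 h after puparium formation, one point a library, with lines through the group means. Sox14, Eip74EF and Mical are lower in EcR-DN at L3 and 0 h, control Sox14 drops to 471 and 503 reads at 6 h, and br and Hr38 are higher in EcR-DN at each stage.

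EcR-DN neurons were set directly against the neurons labelled Sox14 RNAi and E75 RNAi at 0 h, and the comparisons share the EcR-DN libraries with the one above. Of the Sox14 RNAi libraries, A stood apart from B and C, with 13274 reads of mamo against 89852 and 64519 and 317 of Hr38 against 9 and 24. Sox14 itself, the targeted gene, was at 939, 1118 and 996 reads there, below the controls (-2.87 ± 0.23, adjusted p = 2.24e-12), and its level did not pass the test against EcR-DN (0.57 ± 0.23, adjusted p = 0.126). EcR-DN differed from Sox14 RNAi in 765 genes (10.9%), 548 higher and 217 lower, and in 867, 472 or 475 without Sox14 RNAi library A, B or C. The share of higher genes among them, 71.6%, was 57.1% after quantile normalization, and the 6 libraries fitted alone gave 94 calls. Mical was lower in EcR-DN than in Sox14 RNAi, which had 877, 1843 and 1841 reads (-1.30 ± 0.25, adjusted p = 0.000301, and -1.66 ± 0.25 without A). Eip75B was lower (-1.37 ± 0.22, adjusted p = 2.36e-05), and br (1.98 ± 0.28, adjusted p = 3.53e-06) and cpx (3.03 ± 0.32, adjusted p = 2.05e-08) were higher. Proteasome subunits were lower in 20 of 33 and synaptic genes higher in 17 of 36, or 22 and 18 without A. Other genes lower in EcR-DN than in controls were also lower in Sox14 RNAi than in controls. Among them were CG11880 (-4.04 ± 0.36), CG6231 (-4.92 ± 0.84) and 2mit (-2.12 ± 0.29). Between EcR-DN and Sox14 RNAi these did not pass, with differences of -0.48 ± 0.36, 0.06 ± 0.84 and -0.02 ± 0.29. Of 24 autophagy genes, 0 were lower and 0 higher in EcR-DN than in Sox14 RNAi (median -0.07).

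The libraries labelled E75 RNAi did not show less of the targeted gene at 0 h, with 25881 and 31623 reads of Eip75B against 25661 to 36319 in the controls. At this stage the targeted gene thus does not bear out that label. Its mean was 18818.3 against 29969.5 in controls at the third instar and 17467.3 against 7400.5 at 6 h, differences that were not tested. Other genes did differ between the E75 RNAi libraries and the controls at 0 h. Mef2 (3.13, adjusted p = 8.28e-07), Dscam2 (3.61, adjusted p = 2.62e-13) and GluRIA (5.2, adjusted p = 2.14e-12) were higher than in the controls. Ald (0.88, adjusted p = 0.549) and Hr38 (-0.31, adjusted p = 0.956) did not pass. At 0 h EcR-DN differed from the E75 RNAi libraries in 1436 genes (20.4%), 932 higher and 504 lower, in 633 with the 5 libraries fitted alone, and in 880 without E75 RNAi library A. Eip75B was lower in EcR-DN (-1.59 ± 0.25), as were Sox14 (-2.33 ± 0.26, adjusted p = 9.37e-09) and Mical (-2.60 ± 0.28, adjusted p = 3.99e-09), which had 3437 and 3643 reads in the E75 RNAi libraries. The gene br, at 4307 and 5410 reads there, did not pass (0.61 ± 0.31, adjusted p = 0.197), and neither did Mef2 (0.43 ± 0.41, adjusted p = 0.537). Dscam2 (-1.19, adjusted p = 0.000682) and GluRIA (-2.50, adjusted p = 1.44e-05) were lower in EcR-DN than in E75 RNAi. Proteasome subunits were lower in EcR-DN in 29 of 33, synaptic genes higher in 16 of 36 and glycolysis genes higher in 9 of 15.

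Markers of other cell types were checked, since sorted cells can hold others, and in bulk samples fewer cells of a type and less RNA per cell cannot be told apart. Glial, epithelial and cuticle lists had 0 called genes of 6, 10 and 8 measured, and the glial repo was at 0 in all controls and at 5, 8 and 0 in EcR-DN libraries. The summed level of the 20 glial markers was 0.0381% to 0.103% of a control and 0.078% to 0.190% of an EcR-DN library. The photoreceptor rhodopsin gene ninaE, the muscle myosin gene Mhc and the hemocyte genes Hml and NimC1 were at 0 in all 6 libraries. Other markers were listed mainly in EcR-DN libraries. VGlut was at 0, 2 and 0 in control against 31, 25 and 1 in EcR-DN, and ple at 0 in all controls against 19, 1 and 11. Lsp2 (25), dpn (11) and alrm (8) each rose above 1 in a single EcR-DN library only. For grh (0, 69 and 44 against 55, 8 and 0) and VGAT (116, 60 and 167 against 77, 92 and 87) the groups overlapped. The genes called higher in the photoreceptor, hemocyte, fat body and muscle lists were eys, SPARC, Rfabg, bt and Msp300. In list order they were 1 of 2, 1 of 4, 1 of 3 and 2 of 4 genes measured, against 12.5% of all genes. The median differences of these lists were 2.38, 0.93, 0.67 and 1.85, against 0.17 over all genes. The summed photoreceptor list was 0.00168% to 0.00501% of a control and 0.00783% to 0.0145% of an EcR-DN library. The summed muscle list was 0.0338% to 0.0452% in control and 0.221% to 0.270% in EcR-DN libraries, and Msp300, a nesprin, made up most of it (3.26 ± 0.38, adjusted p = 1.51e-08). Of 14 neuroblast and cell cycle genes (median difference 1.5) 2 were higher, against 12.5% of all genes. These were mira, listed at 0 in all controls and at 8, 44 and 110 in EcR-DN, and wor, at 2, 0 and 0 against 21, 18 and 24. The neuroblast list summed to 0.00295% to 0.00882% of a control and 0.00819% to 0.0219% of an EcR-DN library. Of 9 markers of other neuron classes (median difference 2.6) Mip and Ddc were higher, at 15 reads or fewer. That list summed to 0.104% to 0.142% of a control and 0.104% to 0.129% of an EcR-DN library. The part of these marker levels in the results was not tested. The calls of SPARC, Rfabg, bt, Mip and Ddc were each lost without single libraries.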

How the data were processed

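RNA of sorted brain cells was sequenced by MARS-seq, and per the file headers the authors deposited normalized reads per gene as whole numbers, treated here as a score and not as counts, since the header does not name the normalization or say whether molecules or reads were counted. Per the submitters' processing notes the tools included HISAT 0.1.5, with HOMER and bcl2fastq. The build of the genome is, like the normalization, not given in the sources read here, and no coordinates are printed.

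Genes with at least 10 reads in 2 or more libraries of the perturbation table (8656), or in 3 or more of the developmental table (8320), were fitted as log2(value + 1) with limma 3.58.1 in R 4.3.3 (one mean per group and stage, mean-variance trend, two-sided moderated tests), and p-values were adjusted by Benjamini-Hochberg over all genes fitted. The call threshold was 0.05, and the 7035 genes of the comparison are reported. Depth before the authors' scaling was estimated per library from the values up to 60 reads. Figures and counts used python 3.11.15. The scripts were tested on simulated data.

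The members and the 37 gene lists were chosen with earlier results of these data known. The genes named were EcR, usp, Eip75B and Sox14, all genes of the early response and pruning lists, the 15 largest rises and 15 largest falls among called genes without overlap whose higher group averaged 50 or more reads, and up to 4 called genes of each list by smallest p. The text gives values for part of these genes and summarises the others by counts and ranges, and one is not reported here. Genes given outside this rule, such as the marker genes, ey, dac, Dop1R2, elav, Prosbeta1, Rpn6, Rpn13, CG32676 and CG9062, were chosen after their values were seen. Alternatives varied the libraries fitted, pseudocount, filter, scaling, variance model, replicate block and each library left out.

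An exact permutation test of 3 against 3 libraries cannot go below a two-sided p of 0.1, so none was used.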

Additional observations from a re-analysis of the deposited data

Results flagged for a closer look

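The effect of EcR-DN at 0 h differed from its effect at another stage, by a limma interaction term with Benjamini-Hochberg adjusted p under 0.05, for several of the genes named above. Against the third instar, the effect at 0 h was more positive for EcR (2.26 ± 0.28), Eip74EF (1.92 ± 0.41), vri (1.77 ± 0.34), Dscam2 (1.97 ± 0.34), Dscam4 (2.41 ± 0.47), dpr14 (5.07 ± 1.07), Rab26 (2.10 ± 0.51), Rgk1 (1.66 ± 0.35) and sif (2.62 ± 0.63). For EcR, Eip74EF and vri the control level exceeded the EcR-DN level at the third instar, whereas Dscam2, Dscam4, dpr14, Rab26, Rgk1 and sif did not pass the test at that stage.

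Against 6 h, EcR and the early response genes are given first. The effect at 0 h was more negative for Sox14 (-3.99 ± 0.34), Eip74EF (-3.59 ± 0.41), Hr39 (-2.77 ± 0.47), EcR (-2.60 ± 0.28), Blimp-1 (-2.31 ± 0.53), Kr-h1 (-2.03 ± 0.60), vri (-1.86 ± 0.34), br (-1.61 ± 0.42) and Eip75B (-1.51 ± 0.33). Among these genes it was more positive for Eip93F (3.54 ± 0.56) and crol (1.29 ± 0.37). Other named genes passed in each direction, such as Irk1 (-7.2 ± 1.6), Mical (-3.20 ± 0.37), chinmo (4.62 ± 0.92) and cpx (3.10 ± 0.49). Over all genes, the effect was more negative at 0 h for 237 and more positive for 161. The gene br was higher in EcR-DN at both stages, by 2.19 at 0 h and 3.81 at 6 h on the log2 scale.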

How the results depend on the processing

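The 1434 calls at 0 h came to 920 (541 higher) with the 6 libraries fitted alone and to 1132 to 1374 when any 1 library was left out. Under the remaining alternatives other than a replicate block on the 6 libraries, they came to 1260 to 1533. The letters A, B and C did not pair the libraries (same-letter correlations of deviations of -0.003, 0.016 and -0.021). With the letter as a replicate block over the whole table there were 1432 calls, and with the replicate block on the 6 libraries alone 114, of which 51 were higher and 63 lower, a fit with few residual degrees of freedom. The interaction with the third instar (34 genes) came to 52 with only its own libraries, 13 with robust variances, 28 with the replicate block and 11 to 65 with 1 library left out. The interaction with 6 h (398) came to 377 with the block and 271 to 393 with 1 library left out. EcR-DN against Sox14 RNAi (765) came to 94 with only those libraries, 733 with the block, and 472 to 867 with 1 library left out, and EcR-DN against E75 RNAi (1436) to 633, 1384 and 880 to 1246. The developmental step (686) came to 690 with the block and 489 to 710 with 1 library left out, and with only its own libraries to 552, of which 270 rose and 282 fell. The causes were not tested. Of the 136 named genes that were called, 29 stayed past the threshold in every alternative, and 0 reversed. Among the 33 named genes not called, the sign of the difference changed in some, such as Hr51 (-0.20 to 0.04) and SMC1 (-0.19 to 0.23). Leaving aside the block on the 6 libraries, 108 of the 136 stayed past the threshold in all alternatives. Calls of PK2-R1, CG6231, Tsp66E, Hsp67Bb, slmb and stan were lost with the 6 libraries fitted alone and under no other of these alternatives, and that of wor with thinning. Proteasome subunits called lower ranged from 21 to 31 and glycolysis genes called higher from 11 to 12 under those alternatives, while cytoplasmic ribosomal protein genes called lower ranged from 3 to 14 and heat shock genes called lower from 1 to 6. With the block on the 6 libraries, 0 proteasome subunits passed. The thinning, the block on the 6 libraries, the fit to the reported genes alone, the mean of at least 50 and the interaction with 6 h were chosen after seeing the data. Depth before scaling was lowest in the control libraries, which limits genes with few reads there most.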
